A study of Mus musculus with 16 samples.

Results

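Genes for mitochondrial protein import and quality control were followed in germinal centre B cells of wild-type (WT) mice. They were every Timm and Tomm gene with a number in its symbol, together with 18 genes listed by name for the import motor, the outer membrane assembly machinery, the presequence peptidase, matrix chaperones, prohibitins and proteases. Of the 9443 genes in the deposited count table, 40 met this definition, and 33 of the 40 had enough counts to be tested. Samm50, also on the list, was not analysed here. The cells came from lymph nodes, taken 4 h after the mice had received an antibody to CD40 or, as control, an isotype antibody. They were sorted as light zone (LZ) cells, the fraction that competes for T cell help, or as dark zone (DZ) cells, which are the dividing and mutating fraction. Each zone had 4 bulk libraries per antibody, so there were 16 libraries in 4 groups, and no transgene or deletion is given for any of them. The antibody stands in for the CD40 ligand of helper T cells and can reach any CD40-bearing cell of the animal, not B cells alone. The labels do not say whether the libraries of a group came from separate mice, so p-values measure only the spread between these samples.

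Nearly all mitochondrial proteins are made in the cytosol and enter through the TOM complex of the outer membrane. From there they are sorted by TIM23 and its ATP-driven motor into the matrix, by small TIM chaperones and TIM22 into the inner membrane, by the MIA pathway into the intermembrane space, and by SAM into the outer membrane. In the matrix a peptidase removes the import signal, chaperones fold the protein, and AAA+ proteases remove proteins that fail to fold or assemble. Activated B cells enlarge their mitochondrial mass as they grow, and Myc, a transcription factor induced by T cell help, is known to bind many nuclear genes for mitochondrial proteins.

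Library totals lay between 493131 and 1473415 UMI (unique molecular identifiers), and 1 UMI stood for 0.651 to 2.05 CPM. The CPM, the unit of every level given here, is the UMI count scaled to a common library size with TMM factors. The UMI were counted at the 3′ ends of transcripts, and levels are not compared between genes. The 5 LZ marker genes summed to 1766 to 2476 CPM of the library total in isotype LZ and 718 to 867 in isotype DZ, and the 5 DZ markers to 611 to 674 and 809 to 907. After anti-CD40 the LZ markers, led by Nfkbia, summed to 5979 to 7293 CPM in LZ and 2761 to 4240 in DZ, and the DZ markers to 191 to 272 and 622 to 775, so zone names are those of the sort. Germinal centre B cell markers, 9 of 10 present and led by Cd79b, summed to 4941 to 7360 CPM in isotype LZ and 4043 to 5407 in anti-CD40 LZ, and to 6481 to 8457 and 6013 to 7883 in the DZ. Of 12 T cell markers only Cd2 and Lck were in the table, and they summed to 186 to 256 CPM in isotype LZ and 81.5 to 114 in anti-CD40 LZ. The 3 stromal markers present of 11, led by Pecam1, summed to 85.4 to 135 and 37.9 to 55.7 CPM, and the 3 myeloid markers present of 12 to 17.1 to 52.9 and 31.0 to 38.3 CPM. Plasma cell markers, 4 of 6 present and led by Jchain, summed to 358 to 978 and 662 to 841 CPM, and none of 9 red cell and platelet markers was in the table. Defining genes such as Cd3e, Itgam and Col1a1 were not analysed here, so the T cell, stromal and myeloid sums do not measure the content of those cells. The part of other cells or of the marker shifts in the results below was not tested. In bulk RNA, fewer cells of a type and less RNA per cell cannot be told apart. The 4 libraries numbered 4, 1 in each group, stood apart from the other 12 in 35.9% of the genes tested, and results that turn on them are given with and without them.

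After anti-CD40, RNA for protein import and quality control took a larger share of the LZ libraries. The 40 genes together summed to 4711 ± 332 CPM in isotype LZ (mean ± SD, n = 4) and to 7134 ± 849 CPM in anti-CD40 LZ. The lowest anti-CD40 LZ library, at 6034 CPM, lay above the highest isotype LZ library, at 5101 CPM. By edgeR's quasi-likelihood test with Benjamini-Hochberg adjustment over all genes tested, 13 of the 33 tested genes rose and none fell at an adjusted p under 0.05. Among all 6824 genes tested, 19.1% passed in this comparison, 10.8% as higher and 8.24% as lower. The median log2 fold change was 0.61 over the 33 genes and 0.01 over all genes tested, and 31 of the 33 values were above 0. In 13 of the 33, every anti-CD40 library lay above every isotype library, a pattern found in 11.4% of all genes, and in none did every anti-CD40 library lie below (9.03% of all genes). Without the libraries numbered 4, 11 of the 33 genes rose and none fell, all of them among the 13. Of all 7109 genes then tested, 685 rose and 503 fell. Timm8a1 was tested once the libraries numbered 4 were left out and rose as well. It met the count minimum only through anti-CD40 LZ, so this call is not taken as support.

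**Figure D1:**
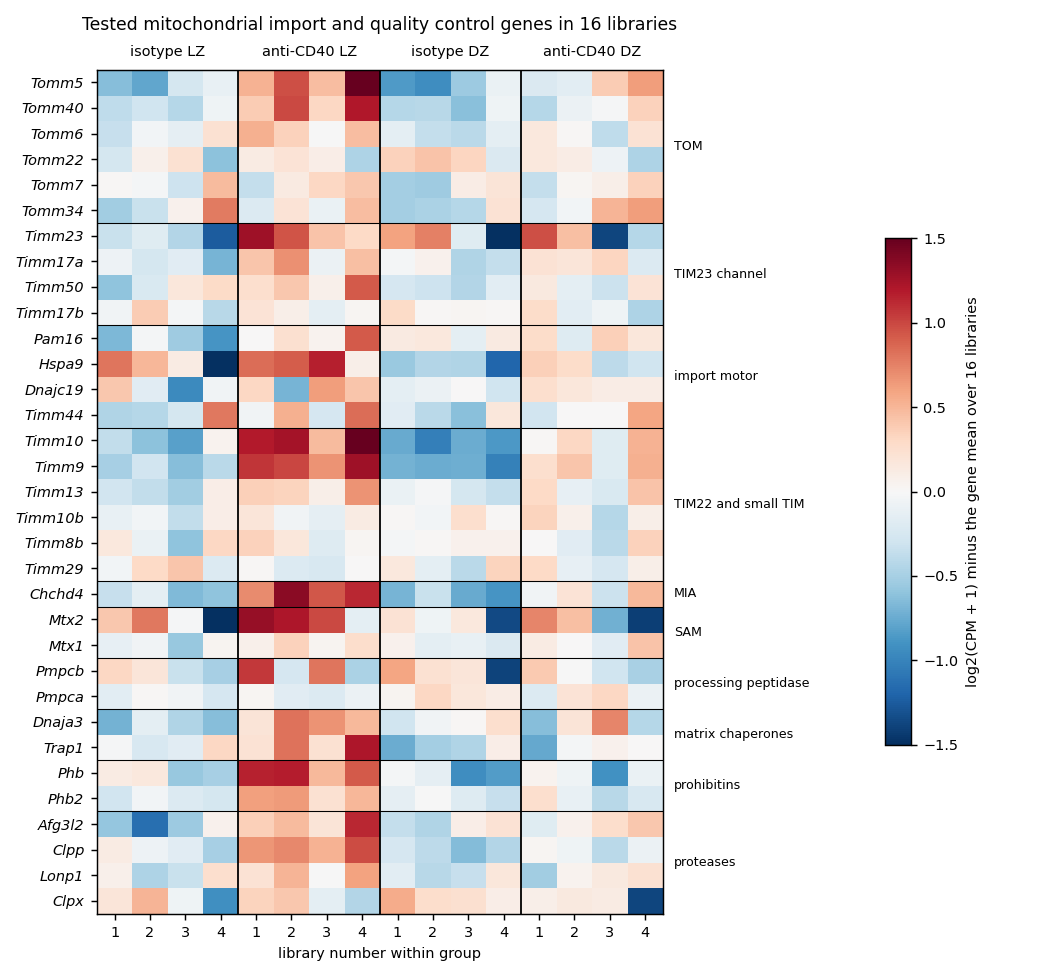
Levels of the 33 tested genes in the 16 libraries, as log2(CPM + 1) minus the mean of the gene over all libraries (colour), with libraries in columns by group and number and genes in rows by role. The anti-CD40 LZ columns are red for most rows, with Timm9, Timm10, Chchd4 and Phb red in all 4, and Mtx2 is blue in the libraries numbered 4.

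**Figure D2:**
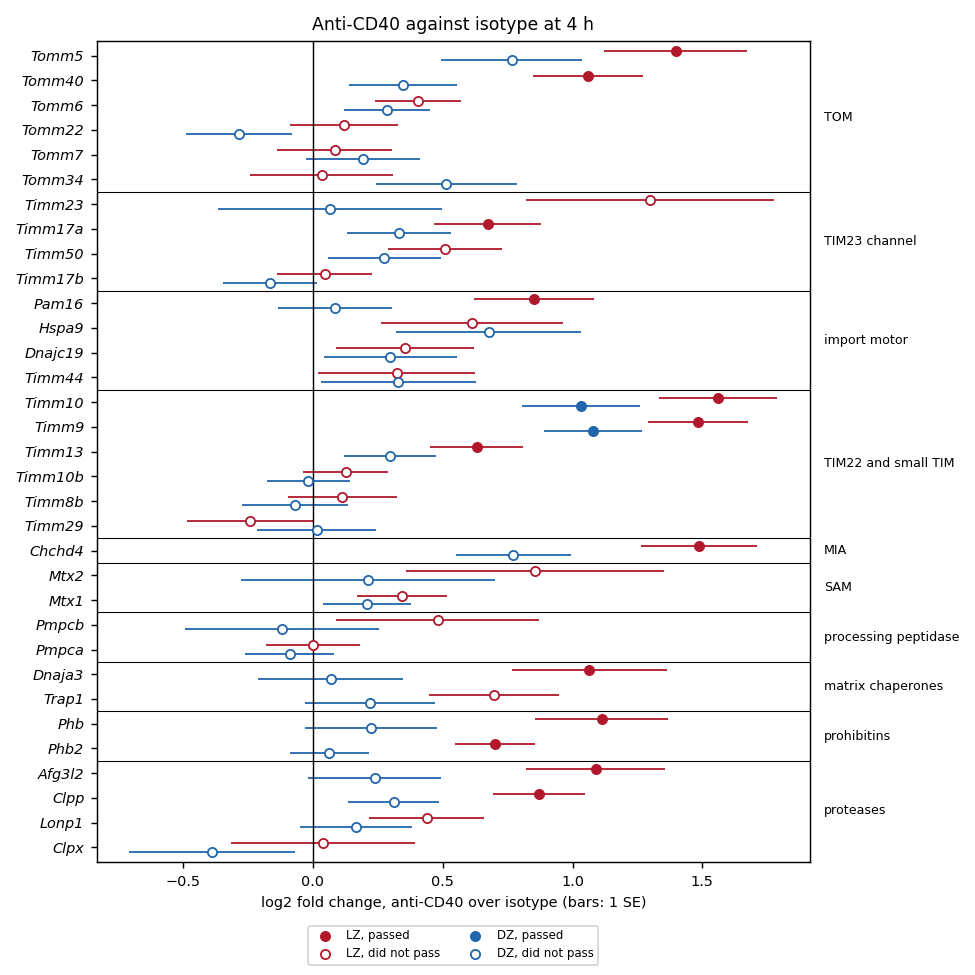
Log2 fold change of anti-CD40 over isotype for each tested gene (x axis; bars, 1 SE; n = 4 libraries per group) in the LZ (red) and the DZ (blue), by role. Filled points passed at an adjusted p under 0.05: 13 in the LZ, and Timm9 and Timm10 in the DZ.

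Timm9 and Timm10, which form the hexameric chaperone that escorts inner membrane proteins across the intermembrane space, were the 2 genes that rose in both zones. Their promoters are shown because both hold CACGTG, the E-box that Myc with Max binds, as do other factors, together with the promoters of Phb and Lonp1, the other tested members that hold it. The sequences are the 250 bases before and 50 bases after the gene start in RefSeq, on GRCm38.p6, printed 5′ to 3′ on the strand of the gene, with CACGTG in capitals. They lie at chr12:71136626-71136925 (minus strand), chr2:84826771-84827070 (plus), chr11:95666707-95667006 (plus) and chr17:56626854-56627153 (minus). The promoter of Chchd4, a gene with a change in the LZ of similar size and no CACGTG in this window, is given for comparison and lies at chr6:91473374-91473673 (minus).
Timm9: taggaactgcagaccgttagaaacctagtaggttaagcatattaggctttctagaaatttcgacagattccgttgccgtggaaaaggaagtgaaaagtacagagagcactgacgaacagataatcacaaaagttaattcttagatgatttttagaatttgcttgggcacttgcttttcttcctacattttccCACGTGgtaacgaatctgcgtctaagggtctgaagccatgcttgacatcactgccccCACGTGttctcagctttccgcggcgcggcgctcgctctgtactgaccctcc
Timm10: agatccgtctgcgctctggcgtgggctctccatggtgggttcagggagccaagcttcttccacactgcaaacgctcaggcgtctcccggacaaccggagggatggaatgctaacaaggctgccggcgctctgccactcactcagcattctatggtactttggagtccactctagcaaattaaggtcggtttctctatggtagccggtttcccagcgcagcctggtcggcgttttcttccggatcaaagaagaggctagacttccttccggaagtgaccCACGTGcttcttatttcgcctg
Phb: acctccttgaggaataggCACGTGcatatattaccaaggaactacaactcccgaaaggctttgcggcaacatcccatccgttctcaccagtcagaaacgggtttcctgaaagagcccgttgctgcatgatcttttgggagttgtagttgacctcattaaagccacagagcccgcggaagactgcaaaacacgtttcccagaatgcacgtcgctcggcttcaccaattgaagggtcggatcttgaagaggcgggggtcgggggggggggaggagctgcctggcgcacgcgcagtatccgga
Lonp1: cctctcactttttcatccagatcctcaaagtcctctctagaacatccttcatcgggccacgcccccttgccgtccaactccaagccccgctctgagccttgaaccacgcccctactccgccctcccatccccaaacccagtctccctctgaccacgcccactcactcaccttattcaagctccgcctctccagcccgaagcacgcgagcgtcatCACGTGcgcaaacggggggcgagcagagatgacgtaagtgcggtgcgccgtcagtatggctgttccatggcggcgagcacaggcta
Chchd4: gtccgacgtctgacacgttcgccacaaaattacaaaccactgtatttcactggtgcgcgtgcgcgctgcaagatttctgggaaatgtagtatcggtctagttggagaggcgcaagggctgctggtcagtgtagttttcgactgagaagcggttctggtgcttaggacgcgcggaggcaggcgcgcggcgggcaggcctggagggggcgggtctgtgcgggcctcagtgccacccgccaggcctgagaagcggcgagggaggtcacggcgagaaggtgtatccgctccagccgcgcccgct

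Timm9 has CACGTG at 2 places, beginning 58 bases and 1 base before the gene start. In Timm10 it begins 29 bases after the start, in Lonp1 36 bases before it and in Phb 232 bases before it. The letters read the same on both strands, so each match counts once. CACGTG was present in 2349 of all 32851 mouse promoters in the table (7.15%), in 12.9% of the 5596 tested genes with an entry, in 6 of the 35 genes of this set with an entry (17.1%) and in 4 of the 30 that were also tested (13.3%). The other members with it were Timm8a1 and Tomm20, which had too few counts to be tested. Among tested genes of the set, the median LZ log2 fold change was 1.30 for the 4 with CACGTG and 0.49 for the 26 without. Over all tested genes the medians were 0.11 with and -0.01 without. Of the 4, Timm9, Timm10 and Phb rose in the LZ, and Lonp1 had a log2 fold change of 0.44 (edgeR adjusted p = 0.185); 9 of the 26 without it rose. Over all tested genes, 122 of 723 with CACGTG rose (16.9%) and 468 of 4873 without (9.6%). Motifs of other factors that act on nuclear genes for mitochondrial proteins were searched on both strands of the same windows. The NRF1 motif, a palindromic site rich in GC, was in 4.6% of all promoters, 14.1% of tested genes and 5 of the 30 tested members, Chchd4 among them. The median LZ log2 fold change was 1.06 for the 5 and 0.48 for the other 25. Of the 5, 4 rose, and of the 25, 8 rose. Phb, 1 of the 5, also holds CACGTG. Among all tested genes 95 of 788 with the NRF1 motif rose (12.1%) and 495 of 4808 without (10.3%). Over all tested genes the medians were 0.08 with it and -0.00 without. CCGGAA, the core of ETS factor sites, was in 14.9% of all promoters, 38.1% of tested genes and 15 of the 30 tested members, with medians of 0.48 with it and 0.63 without. Of the 15 members with CCGGAA 5 rose, and of the 15 without it 7 rose. Among all tested genes 203 of 2131 with CCGGAA rose (9.53%) and 387 of 3465 without (11.2%), with medians of 0.04 and -0.02. These matches describe letters in a window and say nothing of binding in these cells.

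At the outer membrane, 2 of the 6 tested TOM genes rose in the LZ, Tomm5 and Tomm40. Tomm40 encodes the β-barrel channel through which nearly all precursors pass (ENSMUSG00000002984.17, chromosome 7, 19701313 to 19715438, minus strand; GENCODE vM21, GRCm38). It read 216, 229, 209 and 268 CPM in isotype LZ libraries 1 to 4 and 367, 559.8, 348 and 649 CPM in the anti-CD40 LZ libraries. All 4 treated libraries were higher, with libraries 2 and 4 well above 1 and 3 (log2 fold change 1.06, SE 0.21, edgeR adjusted p = 0.00163). Tomm5, a small subunit that stabilises the channel (ENSMUSG00000078713.8, chromosome 4, 45105208 to 45108114, minus strand), read 84.6, 76.4, 110.0 and 122 CPM under isotype and 189, 259, 183 and 404 CPM after anti-CD40. Again the groups did not overlap, and library 4 was the highest in both (log2 fold change 1.40, SE 0.28, edgeR adjusted p = 0.00151).

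The remaining tested TOM genes did not pass. Tomm6, a small subunit like Tomm5, had a log2 fold change of 0.41 (edgeR adjusted p = 0.0977). It passed without isotype LZ library 4 (edgeR adjusted p = 0.0432) or anti-CD40 LZ library 3 (0.0451), and 67.3% of the 50-base words in the last 500 bases of its transcripts (3′ words) also occur in Gm21981, so its counts are uncertain. Values for Tomm22, the central receptor, and Tomm7, the third small subunit, were 0.12 (edgeR adjusted p = 0.761) and 0.08 (edgeR adjusted p = 0.846). Tomm34, a cytosolic partner of heat shock proteins, stood at 0.03 (edgeR adjusted p = 0.954). The log2 ratio of Tomm5 to Tomm7 averaged -1.86 ± 0.37 in isotype LZ and -0.60 ± 0.44 in anti-CD40 LZ (SD, n = 4), and the groups did not overlap. This pair and the others given below as ratios were chosen after the values were seen. Pairs without overlap set a gene that rose beside a gene that did not, so their separation follows from the choice. The ratios of Phb to Phb2, Clpp to Clpx, Pmpca to Pmpcb and Tomm40 to Tomm22 were also taken and overlapped between the LZ groups.

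Among the carriers of the intermembrane space, 3 of 6 tested TIM22 and small TIM genes rose, and they held the largest change among the 33 genes. Timm10 (ENSMUSG00000027076.10, chromosome 2, 84826997 to 84830213, plus strand) read 117, 98.7, 85.8 and 157 CPM in isotype LZ and 345, 361, 209.7 and 440.1 CPM in anti-CD40 LZ. The lowest treated library, number 3, lay above the highest control, number 4, and the fitted change was 2.95-fold (log2 fold change 1.56, SE 0.23, edgeR adjusted p = 9.78e-05). Its partner Timm9 (ENSMUSG00000021079.16, chromosome 12, 71123173 to 71136684, minus strand) read 57.8, 66.8, 52.2 and 61.7 CPM and 173, 166, 132 and 199 CPM. Here the control libraries were close together, and every treated library lay far above them, at 2.80-fold (log2 fold change 1.48, SE 0.19, edgeR adjusted p = 3.21e-05). The log2 ratio of Timm9 to Timm10 had group means between -0.98 and -0.79 over the 4 groups, so the partners moved by similar amounts.

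Timm13, which with a Timm8 protein forms a further small TIM chaperone (ENSMUSG00000020219.7, chromosome 10, 80899450 to 80900969, minus strand), read 425, 403, 364 and 557 CPM in isotype LZ and 667, 654, 555 and 831 CPM in anti-CD40 LZ. The groups overlapped by isotype library 4 and anti-CD40 library 3, which were nearly level (log2 fold change 0.63, SE 0.18, edgeR adjusted p = 0.0180). This call was lost when any 1 of isotype LZ libraries 1, 2 and 3 or anti-CD40 LZ libraries 1, 2 and 4 was left out, with edgeR adjusted p between 0.0515 and 0.0923. The call was also lost with only the LZ groups fitted (edgeR adjusted p = 0.0583). Timm8b, a partner of Timm13, stood at 0.11 (edgeR adjusted p = 0.775), and Timm10b, which docks the Timm9-Timm10 chaperone on TIM22, at 0.13 (edgeR adjusted p = 0.664). Timm29, a subunit of TIM22 found in animals, had the lowest value of the set, -0.24 (edgeR adjusted p = 0.559). The log2 ratio of Timm10 to Timm10b averaged -1.42 ± 0.23 in isotype LZ and -0.00 ± 0.37 in anti-CD40 LZ, without overlap. For Timm10b, 20.8% of 3′ words also occur in other annotated genes. On the other strand, annotated genes overlap the 3′ ends of Timm9 (Tomm20l, 49 bases) and Timm13 (Tmprss9, 43 bases), and without strand their reads cannot be told apart.

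Chchd4, the oxidoreductase of the MIA pathway that puts disulfide bonds into small TIM proteins as they enter (ENSMUSG00000034203.8, chromosome 6, 91462172 to 91473546, minus strand), rose by an amount near that of Timm10. It read 44.3, 50.9, 35.4 and 37.0 CPM in isotype LZ and 93.0, 147, 109 and 125 CPM in anti-CD40 LZ. The highest treated library was number 2, and no treated library came near the controls (log2 fold change 1.49, SE 0.22, edgeR adjusted p = 0.000134).

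In the inner membrane, 1 of 4 tested TIM23 channel genes passed. Timm17a, which pairs with Timm23 in the channel (ENSMUSG00000062580.9, chromosome 1, 135295213 to 135313778, minus strand), read 87.3, 76.4, 82.0 and 56.4 CPM in isotype LZ and 123, 148, 86.8 and 127 CPM in anti-CD40 LZ. Anti-CD40 library 3 lay just under the highest control, so the groups overlapped (log2 fold change 0.67, SE 0.21, edgeR adjusted p = 0.0279). The call was lost without any 1 of isotype LZ libraries 2, 3 and 4 or anti-CD40 LZ libraries 1, 2 and 4 (edgeR adjusted p 0.0555 to 0.123), and without all libraries numbered 4 (0.119). It was also lost with only the LZ groups fitted (edgeR adjusted p = 0.0884) or with upper quartile factors (0.0654). Timm17b, the alternative partner encoded on the X chromosome, had a log2 fold change of 0.05 (edgeR adjusted p = 0.901). The log2 ratio of Timm17a to Timm17b averaged -1.37 ± 0.27 in isotype LZ and -0.76 ± 0.24 in anti-CD40 LZ, ranges that did not overlap.

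Timm23 itself, the channel core, read 24.2, 27.1, 22.4 and 12.3 CPM in isotype LZ and 75.4, 59.9, 41.7 and 38.0 CPM in anti-CD40 LZ. All 4 treated libraries were higher, but the spread was wide and the gene did not pass (log2 fold change 1.30, SE 0.48, edgeR adjusted p = 0.0642). It passed with DESeq2 (adjusted p = 0.0453), and with edgeR when only the LZ groups were fitted (0.0206) or without isotype DZ library 4 or anti-CD40 DZ library 1 or 3 (0.0352 to 0.0468). Of the 3′ words of Timm23, 90.1% also occur in other annotated genes, so its counts are uncertain. Timm50, the presequence receptor of the channel, stood at 0.51 (edgeR adjusted p = 0.120).

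The motor that pulls precursors into the matrix had 1 of 4 tested genes past the threshold. Pam16, which restrains the J-protein of the motor (ENSMUSG00000014301.13, chromosome 16, 4616464 to 4624988, minus strand), read 65.8, 103, 72.7 and 56.4 CPM in isotype LZ and 106, 125, 109 and 201 CPM in anti-CD40 LZ. Every treated library lay above the controls, library 1 narrowly and library 4 by a wide margin (log2 fold change 0.85, SE 0.23, edgeR adjusted p = 0.0136). Without anti-CD40 LZ library 4 the edgeR adjusted p was 0.0664, without isotype LZ library 1 it was 0.0501, and without all libraries numbered 4 it was 0.157. With only the LZ groups fitted the edgeR adjusted p was 0.058. Nearly all 3′ words of Pam16, 97.6%, also occur in Gm9803, and Glis2 overlaps its 3′ end on the other strand, so this count is uncertain.

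Hspa9, the mitochondrial Hsp70 (mortalin) that drives the motor, read 138, 111, 85.8 and 22.9 CPM in isotype LZ and 141, 148, 178 and 83.9 CPM in anti-CD40 LZ. Library 4 was the lowest in both groups, and the groups overlapped (log2 fold change 0.61, SE 0.35, edgeR adjusted p = 0.256). Dnajc19, the J-protein that stimulates it, and Timm44, which tethers it to the channel, had log2 fold changes of 0.36 (edgeR adjusted p = 0.405) and 0.32 (edgeR adjusted p = 0.525).

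Neither SAM gene passed. Mtx1, a metaxin of the complex that inserts β-barrels such as Tomm40 (ENSMUSG00000064068.14, chromosome 3, 89209081 to 89227088, minus strand), read 119.6, 126, 87.6 and 134 CPM in isotype LZ and 138, 166, 134 and 157 CPM in anti-CD40 LZ. The lowest treated library all but touched the highest control (log2 fold change 0.34, SE 0.17, edgeR adjusted p = 0.187). For Mtx2, its partner, the value was 0.86 (edgeR adjusted p = 0.263), with library 4 the lowest of each LZ group. The matrix processing peptidase did not pass either. Pmpca, its substrate-binding subunit (ENSMUSG00000026926.14, chromosome 2, 26389339 to 26397122, plus strand), read 60.5, 68.4, 65.3 and 56.4 CPM and 68.9, 59.9, 58.6 and 63.3 CPM, so that the LZ groups overlapped over nearly their whole range (log2 fold change -0.00, SE 0.18, edgeR adjusted p = 0.999). Pmpcb, the catalytic subunit, stood at 0.48 (edgeR adjusted p = 0.450).

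**Figure D3:**
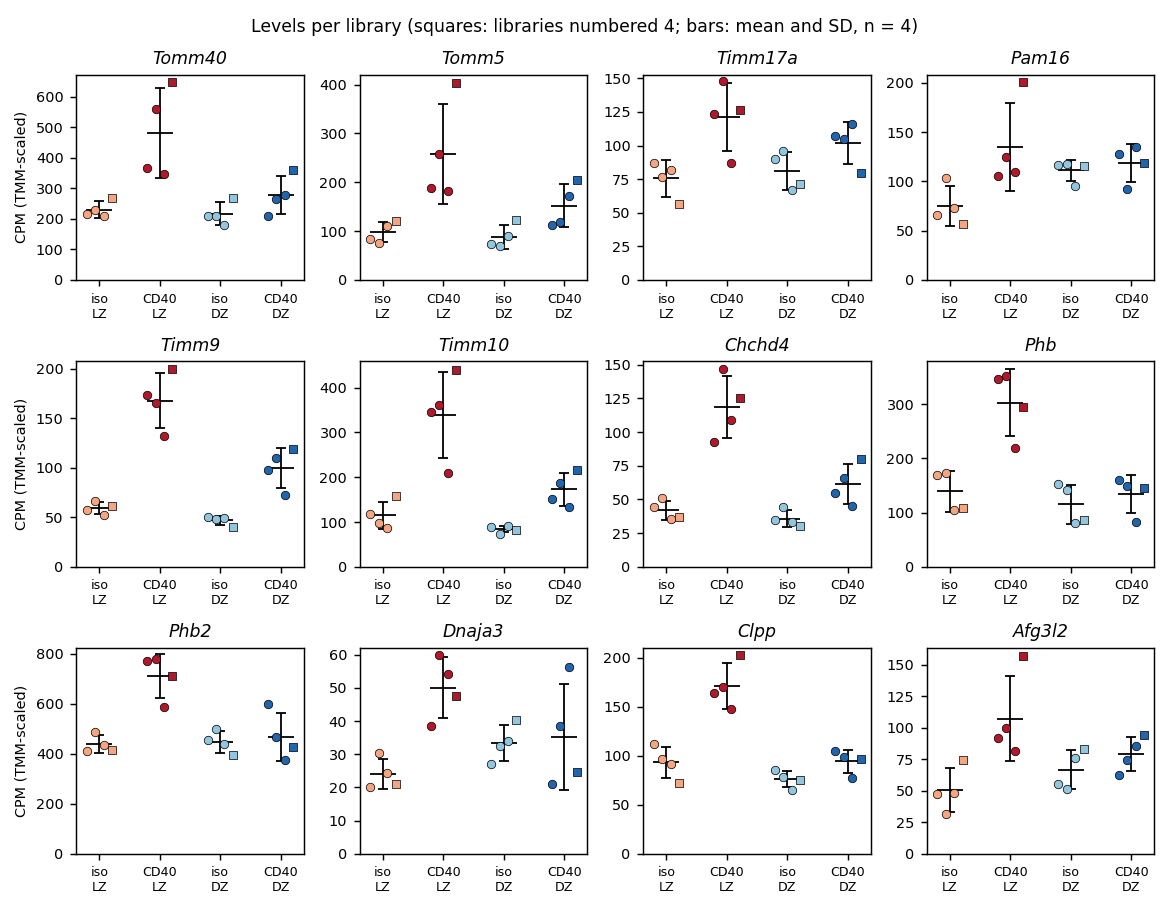
Level of 12 of the genes that rose in the LZ in each library (points; y axis, CPM after TMM scaling, starting at 0) by group, with libraries numbered 4 as squares and the mean and SD of 4 libraries as bars. For Timm9, Chchd4 and Clpp the 4 anti-CD40 LZ libraries lie above all other libraries.

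Of the matrix chaperone genes, Dnaja3 rose in the LZ and Trap1 did not pass. Dnaja3, a J-protein partner of mitochondrial Hsp70 (ENSMUSG00000004069.17, chromosome 16, 4639989 to 4707695, plus strand), read 20.2, 30.2, 24.2 and 21.2 CPM in isotype LZ and 38.5, 59.9, 54.1 and 47.5 CPM in anti-CD40 LZ. The groups did not overlap (log2 fold change 1.06, SE 0.30, edgeR adjusted p = 0.0168). The call was lost without isotype LZ library 1 (edgeR adjusted p = 0.0610) or anti-CD40 LZ library 2 (0.0664). Trap1, the mitochondrial Hsp90 (ENSMUSG00000005981.11, chromosome 16, 4039971 to 4077827, minus strand), read 141, 121, 127 and 178 CPM and 167, 252, 168 and 334 CPM. Anti-CD40 libraries 1 and 3 lay within the range of the controls, and the gene did not pass (log2 fold change 0.70, SE 0.25, edgeR adjusted p = 0.0570). It passed without isotype LZ library 4 (0.0368) or anti-CD40 LZ library 3 (0.0343).

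Both prohibitins, which form ring complexes in the inner membrane that bind the m-AAA protease, rose in the LZ. Phb (ENSMUSG00000038845.11, chromosome 11, 95666957 to 95680773, plus strand) read 169, 173, 104 and 109 CPM in isotype LZ and 346, 352, 219 and 294 CPM in anti-CD40 LZ. Library 3 was the lowest of each group, and the groups did not overlap (log2 fold change 1.11, SE 0.26, edgeR adjusted p = 0.00479). Phb2 (ENSMUSG00000004264.17, chromosome 6, 124712336 to 124716950, plus strand) read 411, 489, 434 and 416 CPM under isotype and 771, 779, 587 and 709 CPM after anti-CD40. Its controls were close together and its treated libraries all higher (log2 fold change 0.70, SE 0.15, edgeR adjusted p = 0.00367). In Phb, 44.5% of 3′ words also occur in 3 annotated genes, against 1.06% in Phb2.

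Of 4 protease genes, 2 rose in the LZ. Afg3l2, a subunit of the m-AAA protease (ENSMUSG00000024527.10, chromosome 18, 67404764 to 67449172, minus strand), read 47.0, 31.8, 48.5 and 74.1 CPM in isotype LZ and 91.4, 99.3, 81.2 and 157 CPM in anti-CD40 LZ. Library 4 was the highest of each group, and the lowest treated library still lay above it (log2 fold change 1.09, SE 0.27, edgeR adjusted p = 0.00778). Clpp, the peptidase of the ClpXP complex (ENSMUSG00000002660.8, chromosome 17, 56990305 to 56996188, plus strand), read 112, 97.1, 91.4 and 72.3 CPM and 164, 170.3, 148 and 203 CPM, with a gap between the groups (log2 fold change 0.87, SE 0.18, edgeR adjusted p = 0.00194). Its unfoldase partner Clpx was at 0.04 (edgeR adjusted p = 0.959), and 1 UMI is a large step at its level of 17.8 ± 6.98 CPM in isotype LZ (SD, n = 4). Lonp1, the other soluble matrix protease, did not pass, as given with its promoter.

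In the DZ, Timm9 and Timm10 were the genes of the set that rose after anti-CD40. Summed levels of the 40 genes were 4598 ± 76.0 CPM in isotype DZ and 5321 ± 446 CPM in anti-CD40 DZ (SD, n = 4), and the lowest treated library, at 4738 CPM, lay just above the highest control, at 4694 CPM. Of the 33 tested genes 2 rose and none fell, where 2.39% of all genes tested passed, 2.24% as higher. The median log2 fold change was 0.22, against -0.01 over all genes, and 26 of 33 values were above 0. Every treated library lay above every control for 5 genes, Timm9, Timm10, Chchd4, Hspa9 and Dnajc19, and below for none, patterns found in 4.95% and 2.4% of all genes. Fxr1 overlaps Dnajc19 on the other strand by 14303 bases, its 3′ end included, and 14.1% of its 3′ words also occur in Dnajc19-ps. The counts of Dnajc19 are therefore uncertain. Without the libraries numbered 4, 3 genes rose, the additional one being Tomm5 (edgeR adjusted p = 0.0363). Over all genes tested, 204 then rose, against 153 with all libraries.

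Timm9 read 49.8, 48.6, 49.1 and 40.2 CPM in isotype DZ and 97.7, 110.0, 72.4 and 119 CPM in anti-CD40 DZ. Treated library 3 was the lowest of its group and still well above the controls (log2 fold change 1.08, SE 0.19, edgeR adjusted p = 0.00197). Timm10 read 89.3, 74.0, 90.1 and 83.0 CPM and 152, 188, 134 and 217 CPM, with the same library lowest and no overlap (log2 fold change 1.03, SE 0.23, edgeR adjusted p = 0.0135). The Timm10 call was lost without isotype DZ library 2 (edgeR adjusted p = 0.0653) or anti-CD40 DZ library 2 (0.0586).

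Chchd4 read 34.6, 44.6, 33.0 and 30.2 CPM in isotype DZ and 54.7, 65.7, 45.0 and 79.9 CPM in anti-CD40 DZ. Treated library 3 all but touched control library 2, and the gene did not pass (log2 fold change 0.77, SE 0.22, edgeR adjusted p = 0.0823). Without anti-CD40 DZ library 3 it passed (0.0466). Tomm5 read 72.7, 68.9, 90.1 and 123 CPM and 113, 118, 172 and 205 CPM, and library 4 of the controls overlapped the treated group (log2 fold change 0.76, SE 0.27, edgeR adjusted p = 0.208). Several genes that rose in the LZ had DZ values near 0: Pam16 at 0.08 (edgeR adjusted p = 0.974), Dnaja3 at 0.07 (edgeR adjusted p = 0.984) and Phb2 at 0.06 (edgeR adjusted p = 0.971).

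The LZ and DZ comparisons share no library. Across the 33 genes their log2 fold changes had a Pearson correlation of 0.663 and a Spearman correlation of 0.559, and across all genes tested 0.676 and 0.582. These are descriptions, since genes of a library share its depth and scaling. The LZ change was the larger in 28 of 33 genes, against 50% of all genes, and 25 of the 33 were above 0 in both zones. The difference between the zones was tested as an interaction, and no gene of the set passed with edgeR, DESeq2 or limma-voom, where 0.0147% of all genes passed with edgeR. At an unadjusted edgeR p under 0.05 there were 8 of the 33 genes, against 586 of all 6824 (8.59%). These were Phb2, Phb, Dnaja3, Tomm40, Pam16, Afg3l2, Chchd4 and Clpp, all with the larger change in the LZ. Phb2 came closest to the threshold, with a log2 fold change larger in the LZ by 0.64 (SE 0.22, edgeR adjusted p = 0.378). For Timm9 and Timm10 the differences were 0.40 (edgeR adjusted p = 0.722) and 0.53 (edgeR adjusted p = 0.686). A gene that passed in the LZ and not in the DZ is therefore not shown to differ between zones. With the replicate number as a block, 1 gene of the set passed, Phb (difference 0.92, edgeR adjusted p = 0.0216), where 107 of all 6824 genes passed. The labels do not say that these numbers pair the libraries, so that fit is an alternative only.

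Between the zones under isotype, no gene of the set was called. None of the 33 genes passed with edgeR, DESeq2 or limma-voom, where 2.23% of all genes passed with edgeR, 1.29% as higher and 0.938% as lower in the LZ, and 2 had an unadjusted edgeR p under 0.05, against 822 of all 6824. These were Pam16, at -0.57 (edgeR adjusted p = 0.279), and Hspa9, at 0.83 (edgeR adjusted p = 0.339), as LZ over DZ on the log2 scale. The median was 0.09 over the 33 genes and 0.02 over all genes, and 18 of 33 were above 0. Groups did not overlap for 1 gene with the LZ higher, Timm9, and 1 with the LZ lower, Pmpca (4.32% and 3.85% of all genes). Hspa9 read 138, 111, 85.8 and 22.9 CPM in isotype LZ and 53.3, 57.7, 57.1 and 33.9 CPM in isotype DZ. LZ library 4 was the lowest of all 8 libraries, and without it Hspa9 passed as higher in the LZ, at a log2 fold change of 1.14 (edgeR adjusted p = 0.0261). Without all libraries numbered 4 the value was 1.01 (0.0115). Over all genes tested, 151 of 6997 passed without isotype LZ library 4 and 212 of 7109 without the libraries numbered 4.

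After anti-CD40, 8 of the 33 genes were higher in the LZ than in the DZ and none was lower, where 11.5% of all genes passed, 6.14% as higher and 5.38% as lower in the LZ. The median was 0.36, against 0.03 over all genes, and 29 of 33 values were above 0. In 5 genes, Chchd4, Clpp, Phb, Timm9 and Trap1, every LZ library lay above every DZ library and in none below, patterns found in 8.59% and 7.62% of all genes. This comparison shares its libraries with both anti-CD40 comparisons above and is not independent of them. Without the libraries numbered 4, 903 of 7109 genes of the whole table passed, against 786 of 6824 with all libraries. Of the 33 genes, 10 passed. They were the 8 without Trap1, together with Hspa9 (log2 fold change 0.81, edgeR adjusted p = 0.0115, against 0.76 and 0.173 with all libraries), Mtx2 (0.80, 0.0394, against 0.87 and 0.293) and Tomm5 (0.62, 0.0482, against 0.78 and 0.064). Timm8a1, tested once these libraries were left out, passed as well, but met the count minimum only through anti-CD40 LZ. Hspa9 and Tomm5 also passed without isotype LZ library 4 alone (0.0407 and 0.0482), and Tomm5 without anti-CD40 LZ library 3 (0.0409) or anti-CD40 DZ library 4 (0.0484).

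**Figure D4:**
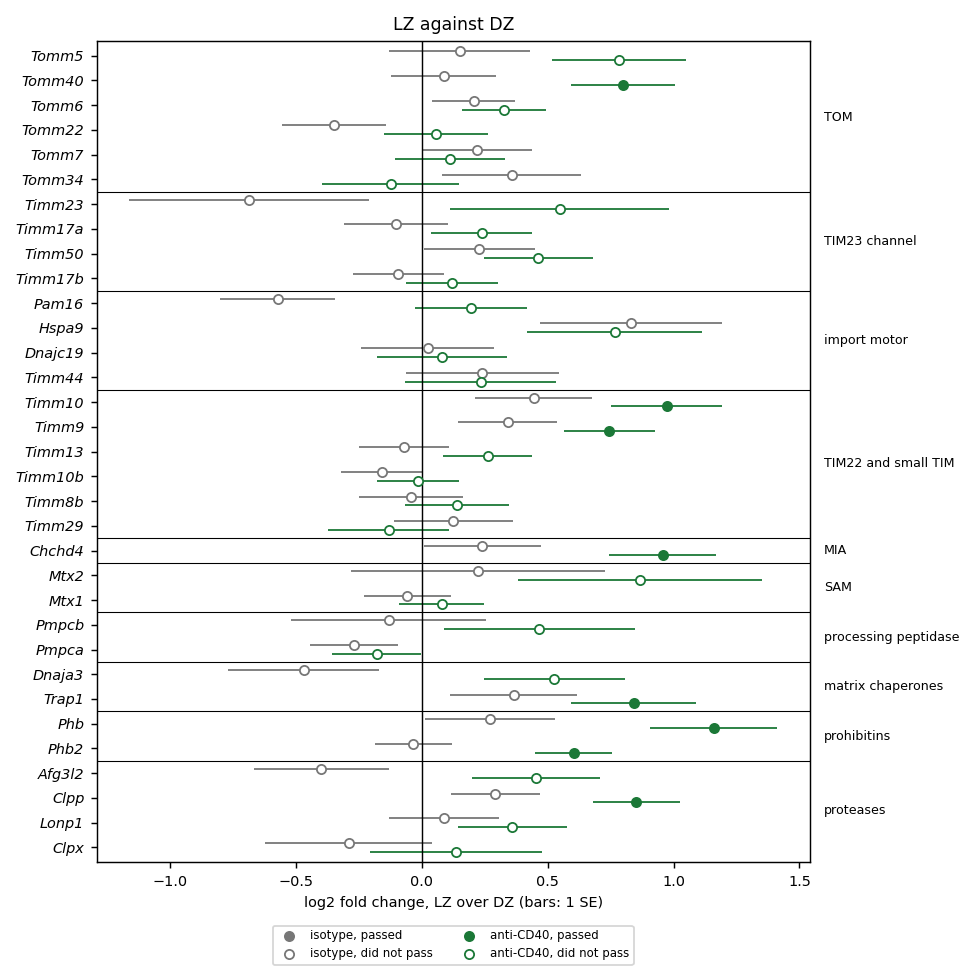
Log2 fold change of LZ over DZ for each tested gene (x axis; bars, 1 SE; n = 4 libraries per group) under isotype (grey) and after anti-CD40 (green), by role. No grey point is filled, and 8 green points are filled, having passed at an adjusted p under 0.05.

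By role, the genes higher in treated LZ than in treated DZ were Tomm40 of the TOM complex, Timm9 and Timm10, Chchd4, Trap1, both prohibitins and Clpp. Phb had the largest difference, with 346, 352, 219 and 294 CPM in anti-CD40 LZ and 161, 149, 82.0 and 145 CPM in anti-CD40 DZ. The groups were far apart (log2 fold change 1.16, SE 0.25, edgeR adjusted p = 0.00482). Clpp read 164, 170.3, 148 and 203 CPM in the LZ and 105, 98.3, 77.2 and 96.3 CPM in the DZ, again with no overlap (log2 fold change 0.85, SE 0.17, edgeR adjusted p = 0.00299). Chchd4 read 93.0, 147, 109 and 125 CPM and 54.7, 65.7, 45.0 and 79.9 CPM, also without overlap (log2 fold change 0.96, SE 0.21, edgeR adjusted p = 0.00548).

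Timm9 had 97.7, 110.0, 72.4 and 119 CPM in anti-CD40 DZ, all under the lowest treated LZ library (log2 fold change 0.74, SE 0.18, edgeR adjusted p = 0.0104), and the call was lost without anti-CD40 DZ library 3 (edgeR adjusted p = 0.0640). Timm10 had 152, 188, 134 and 217 CPM there, where DZ library 4 overlapped LZ library 3 (log2 fold change 0.97, SE 0.22, edgeR adjusted p = 0.00635). The calls of Phb2 (log2 fold change 0.60, SE 0.15, edgeR adjusted p = 0.0139), Tomm40 (log2 fold change 0.80, SE 0.21, edgeR adjusted p = 0.0157) and Trap1 (log2 fold change 0.84, SE 0.25, edgeR adjusted p = 0.0319) were lost when single libraries were left out. They were also lost with only the anti-CD40 groups fitted (edgeR adjusted p = 0.0656, 0.0531 and 0.0635). Trap1 was lost as well without a filter (edgeR adjusted p = 0.0638). Phb2 was lost without any 1 of anti-CD40 LZ libraries 1 and 2 or anti-CD40 DZ libraries 2, 3 and 4 (edgeR adjusted p 0.0504 to 0.0873). Tomm40 was lost without any 1 of anti-CD40 LZ libraries 2 and 4 or anti-CD40 DZ libraries 1, 2 and 3 (0.0632 to 0.0880). Trap1 was lost without any 1 of isotype LZ libraries 1 and 3, anti-CD40 LZ libraries 2 and 4, isotype DZ library 3 or any anti-CD40 DZ library (0.0546 to 0.145), and without all libraries numbered 4 (0.0570).

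The 7 untested genes had between 35 and 122 UMI over all 16 libraries. They were Timm21 (35 UMI), which links TIM23 to TOM, Grpel1 (38), the nucleotide exchange factor of the motor, Timm22 (76), the carrier translocase, Tomm20 (78) and Tomm70a (106), the presequence and carrier receptors, Tomm40l (94), a paralogue of the channel, and Timm8a1 (122), a partner of Timm13. When all 9443 genes were fitted without a filter, Timm8a1 was the only one of the 7 to pass in the LZ. It had 3, 5, 4 and 0 UMI in isotype LZ and 14, 18, 24 and 2 in anti-CD40 LZ, so that library 4 was the lowest of each group and overlapped (log2 fold change 2.05, SE 0.61, edgeR adjusted p = 0.0272). It also passed between the treated zones (1.82, 0.0424). Without the libraries numbered 4 it had enough counts to be tested and passed in both comparisons (edgeR adjusted p = 0.00453 and 0.00177). Of all 7109 genes then tested, 1188 and 903 passed. Timm8a1 met the count minimum there only through anti-CD40 LZ, so these calls are not taken as support. Without a filter the other 6 passed in none of the 5 comparisons. A count of 0 in isotype LZ library 4 allows up to 5.29 CPM (3 UMI, counting error only). At this depth the lack of a call does not show that a gene did not change.

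Outside the set, other genes of mitochondrial import and protein quality control were counted from a list of 41 in the table, 34 of which were tested. In the LZ 10 rose after anti-CD40 and none fell, a share of 29.4% against 10.8% of all genes, with a median log2 fold change of 0.26. The 4 with the smallest adjusted p were Hspd1 (log2 fold change 1.45, SE 0.23, edgeR adjusted p = 0.000218), Tufm (log2 fold change 1.09, SE 0.24, edgeR adjusted p = 0.00366), Hspe1 (log2 fold change 0.82, SE 0.19, edgeR adjusted p = 0.00601) and Atf4 (log2 fold change 0.65, SE 0.16, edgeR adjusted p = 0.00884). Hspd1 and Hspe1 encode the folding chamber of the matrix and its lid, Tufm the elongation factor of mitochondrial translation, and Atf4 a transcription factor of the integrated stress response. In the DZ only Hspd1 rose and none fell (log2 fold change 0.98, SE 0.23, edgeR adjusted p = 0.0221), where 2.24% of all genes rose. Under isotype Mtch1, an outer membrane protein, was lower in the LZ than in the DZ (log2 fold change -0.88, SE 0.18, edgeR adjusted p = 0.0119) and none was higher, where 0.938% of all genes were lower. After anti-CD40, Hspe1, Hspd1, Micos13 and Pitrm1 were higher in the LZ and none lower, where 6.14% of all genes were higher.

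Other nuclear genes for mitochondrial proteins were counted in the same way. Of 65 tested mitochondrial ribosomal protein genes, 16 rose in the LZ after anti-CD40 and none fell (24.6%, against 10.8% of all genes; median log2 fold change 0.40). None passed in the DZ by edgeR, with 2 at an unadjusted p under 0.05, against 746 of all 6824 genes (10.9%). Of 76 tested genes for the respiratory chain and ATP synthase, 4 rose in the LZ and none fell (5.26%, median 0.08), a share under the 10.8% of all genes that rose. Whether these lists differ from the import genes was not tested. Myc, followed because the series concerns it, read 21.5, 46.2, 41.0 and 21.2 CPM in isotype LZ and 224, 353, 255 and 242 CPM in anti-CD40 LZ. In the DZ it averaged 21.9 ± 5.84 CPM and 104 ± 40.4 CPM (SD, n = 4), and in both zones every treated library lay above the controls. The part of Myc in the changes of the import genes was not tested.

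The libraries numbered 4 differed from libraries 1 to 3 in 16 of the 33 genes, with group in the edgeR model, where 35.9% of all genes differed. Of the 16, 10 were higher in libraries numbered 4 and 6 lower. The lower genes were Mtx2 (log2 difference -1.75), Timm23 (-1.07), Pmpcb (-1.05), Hspa9 (-0.996), Clpx (-0.79) and Tomm22 (-0.59). The higher ones ran from Lonp1 (0.41) to Timm44 (0.80) and included Tomm5 (0.69), Afg3l2 (0.60), Tomm40 (0.47) and Timm10 (0.41). The labels name no batch for these libraries.

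**Figure D5:**
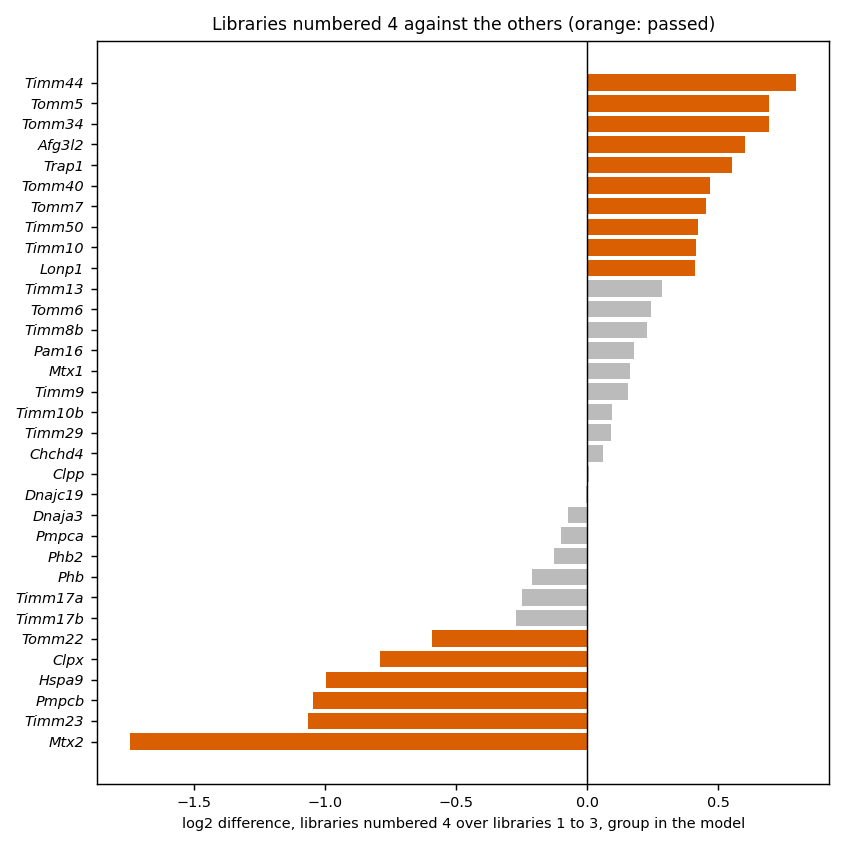
Log2 difference of the libraries numbered 4 over libraries 1 to 3 (x axis), for the 33 tested genes sorted by size, from an edgeR model with group as a term. Orange bars passed at an adjusted p under 0.05, 10 to the right of 0 and 6 to the left.

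In the authors' deposited table, 14 of the 40 genes were higher in the LZ after anti-CD40 at the adjusted p given there, and none lower, and 13 of them are the 13 named above. There 13.7% of all 9443 genes passed in this comparison, in either direction. For the DZ the authors' deposited table has the same 2 genes, where 2.01% of all genes passed. It has none between zones under isotype (2.16% of all genes), and 9 higher in the LZ after anti-CD40 (8.56% of all genes in either direction), 8 of which are the 8 above. Both sets of calls come from the same counts, so their overlap is not independent support.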

How the data were processed

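Polyadenylated RNA of sorted cells was barcoded at reverse transcription, pooled, amplified linearly by in vitro transcription and sequenced, per the labels' protocols. Reads were processed with cutadapt, STAR and HTSeq on mm10 and compared with DESeq2, per the submitters' processing notes, with versions and the strand setting of counting not given in the sources used here. Raw UMI counts per gene were deposited by the authors, and every test used them. The same table has the authors' log2 fold changes and the authors' p-values and adjusted p-values, used for counts of shared genes, and 32 other per-sample columns, not used here.

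The tests used edgeR 4.0.16 in R 4.3.3: filterByExpr (minimum count 10, which left 6824 genes with 98.6% of UMI), TMM factors, and a robust quasi-likelihood fit of 4 group means over 16 libraries. P-values of the 5 comparisons were adjusted by Benjamini-Hochberg over all genes tested, with a threshold of 0.05. The 33 tested members passed the filter also on the 12 libraries outside anti-CD40 LZ. The script was tested on simulated data. Alternatives were RLE and upper quartile factors, no filter, a filter of 20 counts in 4 libraries, DESeq2 1.42.0, limma-voom (limma 3.58.1), the compared groups alone, a block for the replicate number, leaving out each library, and the 4 libraries numbered 4 left out.

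Values in every library are given for members that passed in some comparison (up to 4 per role and comparison), for the member of highest mean in each role with none, and for a few others chosen after their values were seen (Timm23 and Hspa9). The members and lists were chosen with earlier results of these data known. Genes were placed with GENCODE vM21, which also gave the shared 3′ words, and an overlapping gene on the other strand cannot be told apart from a member without strand. Promoters came from RefSeq (GRCm38.p6), with entries for 35 of 40 members. CACGTG was searched on both strands. Python 3.11.15 with pandas 2.3.3, NumPy 2.4.6 and Matplotlib 3.10.9 was used for tables and figures. No 2 libraries of a group agreed within sampling noise (chi-square over degrees of freedom, 1.73 to 11.0).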

Additional observations from a re-analysis of the deposited data

Results flagged for a closer look

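In 7 of 132 sets of 4 libraries (33 genes in 4 groups), 1 library stood apart from the other 3 by more than Dixon's 95% critical value for 4 values, where chance alone gives about 5%. In anti-CD40 DZ library 4, Clpx was at 6.14 CPM, against 18.8 to 19.5 in the others. Timm44 in isotype LZ library 4 was at 176 CPM (73.9 to 83.9 in the others), Tomm34 in isotype DZ library 4 at 161 CPM (97.6 to 103), and Timm9 in isotype DZ library 4 at 40.2 CPM (48.6 to 49.8). The remaining 3 were Pam16 in isotype DZ library 3 at 95.1 CPM (116 to 118), Timm17b in isotype DZ library 1 at 239 CPM (199 to 200), and Trap1 in anti-CD40 DZ library 1 at 83.6 CPM (140 to 150). Of the 7, 4 are in libraries numbered 4.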

How the results depend on the processing

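No direction reversed among called values. Counts cover the members tested in each fit, so Timm8a1, untested with all libraries and the count minimum, is included where it passed (for the LZ, without a filter, without the libraries numbered 4 and in 11 fits with 1 library left out). In the fits with a filter it was tested only through its counts in anti-CD40 LZ, so its calls there are not taken as support. In the LZ, 10 to 19 genes rose after anti-CD40 over all alternatives (10 to 15 with 1 library left out, also among the 33 alone). Over all genes tested, 488 to 1129 rose in the alternatives. The DZ count was 1 to 3 with 1 library left out, falling to 1 without isotype DZ library 2 or anti-CD40 DZ library 2. Over all genes tested, 113 and 98 passed without these libraries, against 163 with all libraries. The interaction count was 0 with any 1 library left out. Under isotype the zone count was 0 to 1 with 1 library left out, and 1 (Hspa9) without isotype LZ library 4 or without all libraries numbered 4. Over all genes tested, 151 of 6997 and 212 of 7109 passed in these fits, against 152 of 6824 with all libraries. After anti-CD40 the zone count was 4 to 11 with 1 library left out (4 to 10 among the 33), 5 without anti-CD40 LZ library 2, 4 without anti-CD40 DZ library 3, and 5 with only the compared groups fitted. Over all genes tested, 480, 498 and 642 passed in these last-named fits, against 786 with all libraries and groups. With upper quartile factors the LZ median over all genes was -0.10, with 596 genes higher and 758 lower (740 and 562 with TMM), and left 12 of the set higher. DESeq2 called 38 genes of the whole table in the interaction, against 1 with edgeR. With the replicate number as a block, 19 genes of the set passed in the LZ, 5 in the DZ, 1 (Phb) in the interaction, 1 (Hspa9) between zones under isotype and 11 after anti-CD40. Calls rose over the whole table too. Of all 6824 genes, 2013, 427, 107, 433 and 1533 passed with the block, against 1302, 163, 1, 152 and 786 without it. Same-numbered libraries were not all correlated in their deviations (from -0.205 to 0.657), and not every library went best with its own number, so the numbers were not taken as pairs. Libraries numbered 4 were correlated with each other in every comparison (0.492 to 0.657). With other numbers, library 4 of the first-named group reached at most 0.258. The fit without a block leaves this shared difference in the spread between libraries. Depth limits the 7 untested genes most.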
